A study of Danio rerio with 9 samples.

Results

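The PEA3 transcription factors etv1, etv4, etv5a and etv5b were compared between thyroid tumors of transgenic zebrafish that carried CCDC6-RET and tumors that carried BRAF(V600E). Members were the rows of the deposited gene table whose symbol was one of these names, which gave 4 of 27158 genes. RNA was sequenced from CCDC6-RET tumors numbered 2, 3, 5 and 6 (n = 4) and from BRAF(V600E) tumors numbered 1, 2, 3, 6 and 7 (n = 5), all named adult and all taken as bulk tissue once a lesion was visible. In both groups the zebrafish thyroglobulin promoter drove the oncogene, so it acts where that promoter is on. CCDC6-RET is a human fusion that joins the kinase part of the receptor RET to CCDC6, and it had been introduced into fish with a red thyroid reporter. BRAF(V600E) is an activated form of the kinase BRAF, and its fish came from an earlier model. In the study, BRAF(V600E) fish in which tumor onset was scored were also p53(M214K) mutants. Whether that mutation was present in the sequenced tumors is not on the labels, so the oncogene cannot be told apart from p53 status or from line. The sources used here give no age, sex, clutch or sequencing run. Nothing states that the libraries stem from different fish, and the p-values therefore reflect only how far these samples vary, which may be technical.

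PEA3 factors are a subfamily of the ETS proteins, which bind DNA through a shared ETS domain. Receptor tyrosine kinases signal through RAS, MEK and ERK, and in many vertebrate tissues this signal raises transcription of PEA3 genes, in part by relieving repression by capicua. In zebrafish the PEA3 genes are known as targets of fibroblast growth factor signalling, and etv5a and etv5b are a duplicated pair that correspond to human ETV5.

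CCDC6-RET libraries held 8662544 to 13596477 counts, and BRAF(V600E) libraries 10656967 to 13354953 counts. Levels are given in CPM, counts divided by the TMM-scaled library size and put on a common scale of 1e6, and n is 4 CCDC6-RET and 5 BRAF(V600E) libraries. Fold changes are log2 of CCDC6-RET over BRAF(V600E) with the standard error after ±. They were tested with edgeR's quasi-likelihood test and Benjamini-Hochberg adjustment over 18453 genes. The standard error was derived from that test, as the absolute log2 fold change over the square root of the F statistic. A gene was called when its adjusted p was under 0.05. CPM are not divided by transcript length, so levels of different genes are not compared. In bulk tumors, fewer cells of a type and less RNA per cell cannot be told apart.

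etv4, etv5b and etv5a were all higher in CCDC6-RET tumors, by 22.7-fold, 6.55-fold and 2.03-fold, and etv1 was close to the limit of detection in both groups. These 3 genes passed the filter on low counts and etv1 did not. The comparison moved much of the transcriptome: 72.1% of the tested genes were called in either direction and 33.9% were called higher. A call alone therefore does not set a PEA3 gene apart, and the sizes of the differences are given for each gene. For each of the 3 genes, every CCDC6-RET tumor had a higher CPM than every BRAF(V600E) tumor. The same held for 29.2% of all tested genes.

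etv4 (ENSDARG00000018303, chromosome 12, 27444735 to 27477334 on GRCz10) corresponds to human ETV4, the PEA3 factor after which the subfamily is named. It had 231.1, 274.4, 117.4 and 225.3 CPM in CCDC6-RET tumors 2, 3, 5 and 6, against 9.69, 9.47, 8.60, 10.4 and 8.41 CPM in BRAF(V600E) tumors 1, 2, 3, 6 and 7. CCDC6-RET tumor 5 was the lowest of its group and still lay far above every BRAF(V600E) tumor. Means were 212.0 ± 66.8 CPM in CCDC6-RET and 9.31 ± 0.814 CPM in BRAF(V600E) tumors (SD). The fold change on the log2 scale was 4.51 ± 0.24 (edgeR adjusted p = 1.21e-06), rank 174 from the top among tested genes. Behind these values were 1445 to 3061 reads in each CCDC6-RET library and 99 to 148 in each BRAF(V600E) library. Another gene model, AL833789.1, overlaps etv4 and held 8 counts over all libraries.

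etv5b (ENSDARG00000044511, chromosome 6, 13902582 to 13910699) is one of the ETV5 pair. It had 112.7, 99.0, 110.4 and 102.2 CPM in CCDC6-RET tumors 2, 3, 5 and 6, against 22.6, 15.8, 12.3, 15.2 and 15.0 CPM in BRAF(V600E) tumors 1, 2, 3, 6 and 7. Values of CCDC6-RET tumors lay close together, and BRAF(V600E) tumor 1 was the highest of its group. Means were 106.1 ± 6.53 CPM in CCDC6-RET and 16.2 ± 3.83 CPM in BRAF(V600E) tumors (SD), and the log2 fold change was 2.71 ± 0.17 (edgeR adjusted p = 2.03e-06), rank 720 from the top.

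etv5a (ENSDARG00000069763, chromosome 9, 22820918 to 22838182) is the other gene of that pair. It had 51.2, 66.7, 59.5 and 63.3 CPM in CCDC6-RET tumors 2, 3, 5 and 6, against 30.5, 26.0, 29.4, 34.9 and 27.7 CPM in BRAF(V600E) tumors 1, 2, 3, 6 and 7. Even the lowest CCDC6-RET tumor, number 2, was above the highest BRAF(V600E) tumor, number 6. Means were 60.2 ± 6.66 CPM in CCDC6-RET and 29.7 ± 3.37 CPM in BRAF(V600E) tumors (SD), and the log2 fold change was 1.02 ± 0.13 (edgeR adjusted p = 6.44e-05), rank 3722 from the top. The size depends on the scaling: with libraries scaled on 82 ribosomal protein genes, etv5a stood at 0.43 ± 0.15 (edgeR adjusted p = 0.0281), while etv4 stood at 3.92 and etv5b at 2.16. That scaling also moved the median log2 fold change of all tested genes to -0.65, against -0.087 with TMM, and called 3066 genes higher and 8909 lower, against 6255 higher and 7043 lower.

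**Figure D1:**
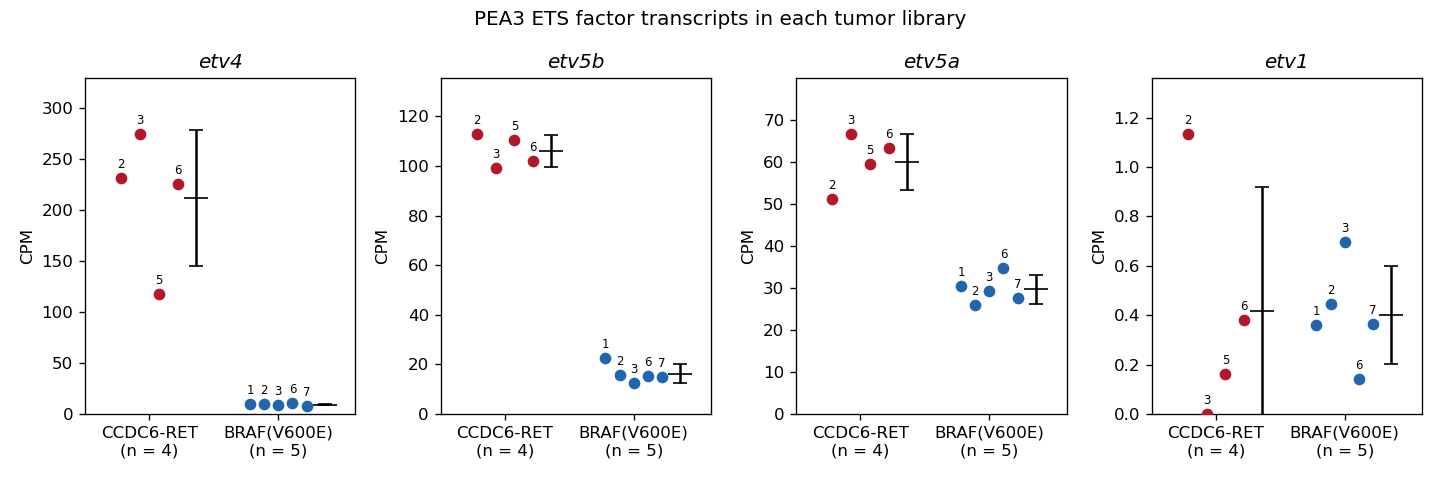
CPM (vertical axis, a separate linear scale for each gene) of etv4, etv5b, etv5a and etv1 in each tumor library, with replicate numbers beside the points and the mean with its SD at the right of each group. CCDC6-RET tumors lie above all BRAF(V600E) tumors for etv4, etv5b and etv5a, and the groups overlap for etv1, where the lower end of the CCDC6-RET SD bar is cut at 0.

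etv1 (ENSDARG00000101959, chromosome 15, 34315530 to 34356315) corresponds to human ETV1, which is known for its part in interstitial cells of Cajal and in gastrointestinal stromal tumors. It had 15, 0, 2 and 4 counts in CCDC6-RET tumors 2, 3, 5 and 6, against 4, 5, 8, 2 and 5 counts in BRAF(V600E) tumors 1, 2, 3, 6 and 7. CCDC6-RET tumor 2 held most of the counts of its group, and the count of 0 in CCDC6-RET tumor 3 allows up to 3 counts, or 0.385 CPM. Means were 0.419 ± 0.501 CPM in CCDC6-RET and 0.401 ± 0.200 CPM in BRAF(V600E) tumors (SD), a difference that an exact two-sided permutation test over libraries did not separate from 0 (p = 0.873). Over the pooled libraries, 21 counts in CCDC6-RET and 24 counts in BRAF(V600E) gave a ratio of 1.23, with an exact 95% interval of 0.653 to 2.31 that covers counting error only. Without CCDC6-RET tumor 2 the ratio was 0.505, with an interval of 0.169 to 1.27. Each interval gives the ratios that the counts of its own libraries leave possible, and no limit of detection was computed. Because the intervals leave out the spread between tumors, a difference larger than they cover may have been missed.

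The spread among tumors of a group also differed from gene to gene. On the log2(CPM + 0.5) scale the SD of etv4 was 0.54 in CCDC6-RET and 0.12 in BRAF(V600E) tumors. For etv5b the order was the opposite, at 0.089 in CCDC6-RET and 0.31 in BRAF(V600E) tumors, and for etv5a both groups had 0.16. These SDs are descriptions, and their differences were not tested.

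Whether the members differed by unequal amounts was asked with the ratio of their counts within each library, which does not depend on library scaling. The log2 ratio of etv4 to etv5a was 2.17, 2.04, 0.98 and 1.83 in CCDC6-RET tumors 2, 3, 5 and 6, against -1.65, -1.45, -1.77, -1.74 and -1.72 in BRAF(V600E) tumors 1, 2, 3, 6 and 7. All CCDC6-RET libraries lay above all BRAF(V600E) libraries. The sign of such a ratio depends on the lengths of both transcripts, so only its difference between groups is read. The mean ratios differed by 3.42 on the log2 scale, and the exact two-sided permutation test gave p = 0.0159, the smallest that 4 against 5 libraries can give, or 0.019 adjusted over 6 pairs.

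The ratio of etv4 to etv5b averaged 0.93 ± 0.59 in CCDC6-RET and -0.77 ± 0.28 in BRAF(V600E) tumors (SD, log2 scale), a difference of 1.70 with the same exact p of 0.0159 and adjusted p of 0.019. Between the ETV5 duplicates, the ratio of etv5a to etv5b averaged -0.82 ± 0.25 in CCDC6-RET and 0.90 ± 0.34 in BRAF(V600E) tumors, a difference of -1.72 with again those exact permutation values. In CCDC6-RET tumors 2, 3, 5 and 6 the etv5a to etv5b ratio was -1.14, -0.57, -0.89 and -0.69, against 0.43, 0.72, 1.25, 1.20 and 0.88 in BRAF(V600E) tumors 1, 2, 3, 6 and 7. The differences between members gave the order etv4, etv5b, etv5a from the largest to the smallest rise, and each step was larger than the spread between libraries. Relative to etv4 and etv5b, etv1 was lower in CCDC6-RET tumors, with differences of -4.94 and -3.23 on the log2 scale (exact permutation p = 0.0159 and adjusted p = 0.019 for each). Relative to etv5a it differed by -1.51, which did not pass (exact permutation p = 0.19, also after adjustment), and stood at -0.75 without CCDC6-RET tumor 3 and -2.27 without CCDC6-RET tumor 2. All etv1 ratios rest on etv1 counts of 0 to 15.

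**Figure D2:**
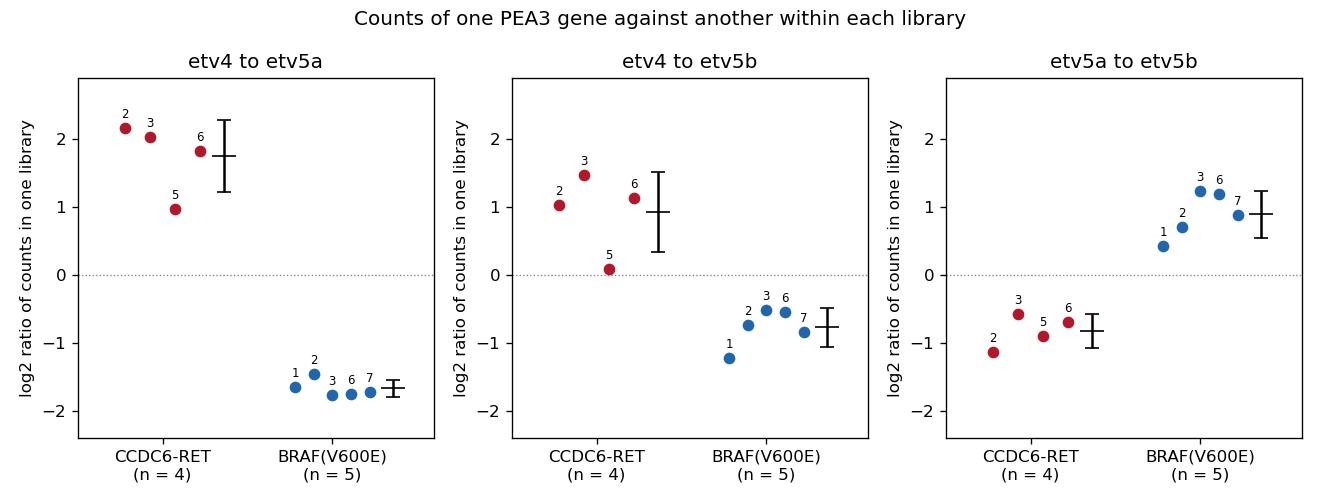
Log2 ratio of the counts of a pair of PEA3 genes within each library (vertical axis, the same scale in each panel), with replicate numbers beside the points and the mean with its SD at the right of each group. The etv4 to etv5a and etv4 to etv5b ratios of all CCDC6-RET tumors lie above those of all BRAF(V600E) tumors, and their etv5a to etv5b ratios lie below.

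Tissue markers moved with the groups. Of 13 tested thyroid follicle markers, 11 were higher in CCDC6-RET tumors and none lower, where 33.9% of all tested genes were called higher. Their median log2 fold change was 4.14. Of the 11, nkx2.1 and cdh16 had 0 to 6 counts per BRAF(V600E) library and passed the low-count filter only through CCDC6-RET. The thyroid markers summed to 14586 to 32228 CPM in CCDC6-RET and 2517 to 21522 CPM in BRAF(V600E) tumors. Most of that sum is tg, at 12210 to 30054 CPM in CCDC6-RET and 2444 to 21275 CPM in BRAF(V600E) tumors, so it does not describe the 11 higher genes. tg at a log2 fold change of 0.96 ± 0.55 and slc5a5 at 1.1 ± 0.92 did not pass. nkx2.4a was not tested, with 0 counts over all CCDC6-RET libraries and 1 count over all BRAF(V600E) libraries. All 21 tested skeletal muscle markers, all 8 erythroid markers, all 15 leukocyte markers, 15 of 16 epidermis and gill ionocyte markers and 7 of 10 fibroblast and vessel markers were lower in CCDC6-RET tumors, where 38.2% of all tested genes were called lower. Muscle markers summed to 25.0 to 83.7 CPM in CCDC6-RET and 5981 to 19549 CPM in BRAF(V600E) tumors. Erythroid markers summed to 82.3 to 831 CPM in CCDC6-RET and 4384 to 14427 CPM in BRAF(V600E) tumors, and leukocyte markers to 151 to 651 CPM in CCDC6-RET and 4062 to 5588 CPM in BRAF(V600E) tumors. Epidermis and ionocyte markers summed to 1015 to 2946 CPM in CCDC6-RET and 14744 to 35090 CPM in BRAF(V600E) tumors, and krt92, foxi3b and slc4a1b were at 0 in all CCDC6-RET libraries. Fibroblast and vessel markers summed to 277 to 1205 CPM in CCDC6-RET and 4873 to 9268 CPM in BRAF(V600E) tumors. Neuron markers summed to 36.4 to 73.5 CPM in CCDC6-RET and 12.6 to 15.6 CPM in BRAF(V600E) tumors, with 2 of 5 tested markers higher and 2 lower, and elavl3 and snap25a at 0 in all CCDC6-RET libraries. The part of this shift in the PEA3 differences was not tested.

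PEA3 counts were also set against thyroid genes of the same library, as a description. Against tg, which encodes thyroglobulin, the etv4 log2 ratio was higher in CCDC6-RET tumors by 3.18, against pax8, a thyroid transcription factor, by 2.71, and against foxe1, another one, by 1.67, with no overlap of the groups. Against nkx2.4b, a homeobox gene of the thyroid, and against tshr, the receptor for thyrotropin, the differences for etv4 were -0.13 and -0.47 and the groups overlapped. The etv5b ratios to tg, pax8 and foxe1 differed by 1.48, 1.0 and -0.031 with overlapping groups. Its ratios to nkx2.4b and tshr were lower in CCDC6-RET tumors without overlap, with differences of -1.83 and -2.17. For etv5a, ratios to tg and pax8 overlapped, with differences of -0.24 and -0.71. Against foxe1, nkx2.4b and tshr, the etv5a ratio was lower in every CCDC6-RET tumor, with differences of -1.75, -3.55 and -3.89 on the log2 scale. The result of setting a PEA3 gene against the thyroid follicle therefore depended on the thyroid gene used.

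**Figure D3:**
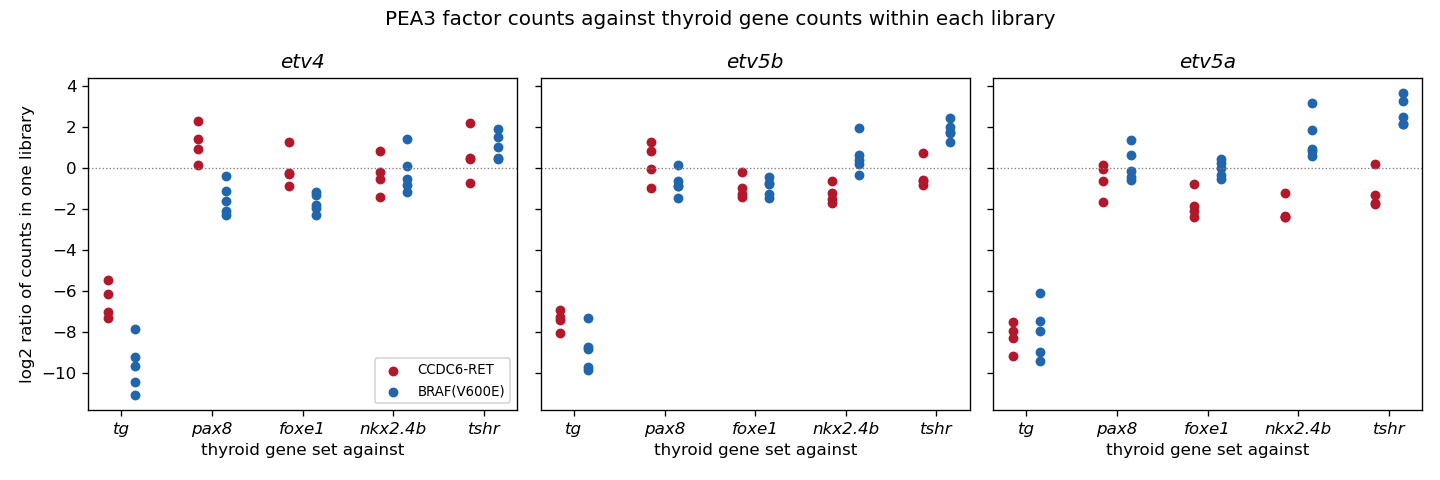
Log2 ratio of etv4, etv5b and etv5a counts to the counts of 5 thyroid genes (horizontal axis) within each library, 1 point per tumor. The etv4 points of CCDC6-RET tumors lie above those of BRAF(V600E) tumors for tg, pax8 and foxe1 and overlap them for nkx2.4b and tshr, and the etv5a points of CCDC6-RET tumors lie below them for foxe1, nkx2.4b and tshr.

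Among the ETS family, 26 genes were tested, and by log2 fold change etv4 had rank 1, etv5b rank 2 and etv5a rank 5. Of the other 23 ETS genes, 4 were higher, 13 were lower and 6 did not pass, with a median log2 fold change of -0.87, beside 33.9% higher, 38.2% lower and a median of -0.087 over all tested genes. Under ribosomal scaling the split was 1 higher and 15 lower, beside 3066 higher and 8909 lower of all 18453 tested genes. erfl3, related to the human ETS repressor ERF, rose by 1.27 ± 0.12 on the log2 scale, to 106.2 ± 16.1 CPM in CCDC6-RET against 43.9 ± 3.09 CPM in BRAF(V600E) tumors (edgeR adjusted p = 1.63e-05). ehf, an ETS factor of epithelia, was lower at 3.79 ± 2.28 CPM in CCDC6-RET and 38.5 ± 8.65 CPM in BRAF(V600E) tumors (-3.37 ± 0.37, edgeR adjusted p = 3.37e-05). elk1, a partner of serum response factor that ERK phosphorylates, was lower with a log2 fold change of -2.24 ± 0.35, and ets1, whose row was matched through a gene synonym table, was lower at -1.96 ± 0.31 (edgeR adjusted p = 0.000289 and 0.000322). Several ETS genes are known from leukocytes and vessels, most of whose markers also fell in these CCDC6-RET tumors, and the part of those cells in these values was not tested. The lower gene fli1a was counted both among the ETS genes and among the fibroblast and vessel markers. Calls of etv7 and spi1a, both lower, did not hold when most single libraries were left out. Also among the 13 lower genes, spic and spdef had 0 to 4 counts per CCDC6-RET library and passed the low-count filter only through BRAF(V600E). spdef had no value when BRAF(V600E) tumor 1, 2, 3 or 6 was left out.

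**Figure D4:**
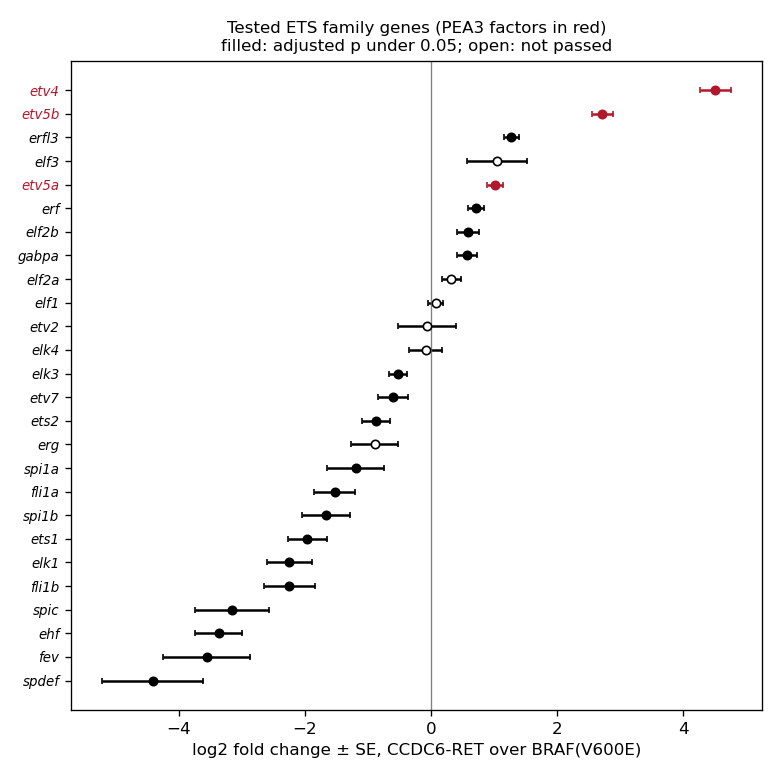
Log2 fold change with its standard error (horizontal axis, CCDC6-RET over BRAF(V600E)) of the 26 tested ETS family genes, ordered by size, with PEA3 factors in red, filled points for genes called by edgeR and open points for genes that did not pass. etv4 at 4.51 and etv5b at 2.71 lie above all other ETS genes.

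Genes that rise with ERK activity, including its feedback inhibitors, were described as a list of 30 tested genes, of which 10 were higher, 5 lower and 15 did not pass, with a median log2 fold change of 0.26. Over all tested genes 33.9% were higher and 38.2% lower, with a median of -0.087. The share of higher genes in this list was near that background and the share of lower genes was below it, which was not tested. Under ribosomal scaling 6 were higher and 12 lower, beside 3066 higher and 8909 lower of all 18453 tested genes. flrt3, a membrane protein induced by fibroblast growth factor, had 340.3, 321.9, 428.0 and 183.0 CPM in CCDC6-RET tumors 2, 3, 5 and 6, against 25.7, 24.7, 20.1, 23.2 and 18.3 CPM in BRAF(V600E) tumors 1, 2, 3, 6 and 7 (log2 fold change 3.83 ± 0.24, edgeR adjusted p = 2.22e-06). ccnd1, the cyclin of early cell cycle entry, rose to 199.3 ± 30.1 CPM in CCDC6-RET, against 49.1 ± 6.20 CPM in BRAF(V600E) tumors, and spred1, an inhibitor of RAS signalling, to 86.4 ± 9.03 CPM in CCDC6-RET, against 41.7 ± 3.91 CPM in BRAF(V600E) tumors. Their log2 fold changes were 2.02 ± 0.14 and 1.05 ± 0.11 (edgeR adjusted p = 3.09e-06 and 3.19e-05). mycb, a Myc gene, fell by 2.83 on the log2 scale, to 15.0 ± 5.64 CPM in CCDC6-RET against 106.7 ± 18.7 CPM in BRAF(V600E) tumors (edgeR adjusted p = 2.34e-05). Its paralog myca, named after its values were seen, was called higher at 2.04 ± 0.60 (edgeR adjusted p = 0.0115). The myca groups overlapped, at 30.5 to 320.8 CPM in CCDC6-RET and 34.1 to 53.1 CPM in BRAF(V600E) tumors. That call was lost with limma-voom (adjusted p = 0.0673). Also named after their values were seen, fosab was lower at -3.11 ± 0.45 and fosb at -3.99 ± 1.16 (edgeR adjusted p = 0.000193 and 0.0109). The fosb groups overlapped, with 1 to 127 counts per CCDC6-RET library. In the other direction, phlda2 was higher at 1.19 ± 0.33 and epha2a at 0.47 ± 0.15 (edgeR adjusted p = 0.00895 and 0.0174). The phlda2 and epha2a calls were lost under ribosomal scaling.

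dusp6 encodes a phosphatase that acts on ERK, and its transcript is widely used as a readout of the pathway. It had 261.5, 378.1, 323.9 and 282.0 CPM in CCDC6-RET tumors 2, 3, 5 and 6, against 263.0, 237.4, 236.2, 340.0 and 208.2 CPM in BRAF(V600E) tumors 1, 2, 3, 6 and 7. Both groups overlapped, and the log2 fold change of 0.28 ± 0.17 did not pass (edgeR adjusted p = 0.165). It passed at 0.38 when BRAF(V600E) tumor 6 was left out (edgeR adjusted p = 0.0493). Among other feedback inhibitors, picked after their values were seen, spry1 was higher at 2.45 ± 0.27 and spred3 at 6.23 ± 0.85 on the log2 scale (edgeR adjusted p = 3.21e-05 and 0.000128). spred3 had 0 to 5 counts per BRAF(V600E) library and passed the low-count filter only through its CCDC6-RET counts of 35 to 426. The size of its fold change is therefore uncertain. Also higher were dusp4 at 1.22 ± 0.28 and spred2a at 0.60 ± 0.13 (edgeR adjusted p = 0.00302 and 0.0019). The dusp4 and spred2a calls were lost under ribosomal scaling, at 0.73 and 0.039. dusp1 was lower at -1.97 ± 0.38 and spred2b at -0.75 ± 0.22 (edgeR adjusted p = 0.00105 and 0.011), while spry2 at -0.39 ± 0.29 and spry4 at -0.34 ± 0.26 did not pass. Under ribosomal scaling both passed as lower, at -1.03 and -0.94 (edgeR adjusted p = 0.0036 and 0.00436), and spry2 also passed without CCDC6-RET tumor 3, at -0.70 (edgeR adjusted p = 0.0272).

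Of 14 regulators of PEA3 genes and proteins, 3 were higher, 4 were lower and 7 did not pass, with a median log2 fold change of 0.016. Both shares were below those of all tested genes, 33.9% higher and 38.2% lower. Under ribosomal scaling none was higher and 7 were lower, beside 3066 higher and 8909 lower of all 18453 tested genes. cica and cicb encode capicua, the repressor of PEA3 genes. cica had 124.8 ± 21.0 CPM in CCDC6-RET and 89.8 ± 5.60 CPM in BRAF(V600E) tumors, and was higher by 0.47 ± 0.13 (edgeR adjusted p = 0.00672), a call lost under ribosomal scaling at -0.064. cicb had 59.7 ± 11.2 CPM in CCDC6-RET and 63.6 ± 1.93 CPM in BRAF(V600E) tumors (log2 fold change -0.091 ± 0.14, edgeR adjusted p = 0.564), and was lower under ribosomal scaling (-0.64, edgeR adjusted p = 0.0207). atxn1l, a cofactor of capicua in mammals, was lower at 0.312 ± 0.142 CPM in CCDC6-RET and 2.83 ± 0.937 CPM in BRAF(V600E) tumors (-3.19 ± 0.42, edgeR adjusted p = 0.000103), on 2 to 4 counts per CCDC6-RET library. It passed the low-count filter only through its BRAF(V600E) counts of 17 to 56, so the size of its fold change is uncertain. mapk3, which encodes the kinase ERK1, was lower at -1.06 ± 0.21 on the log2 scale (edgeR adjusted p = 0.00147). The paralogs of the coactivator p300 had opposite calls, with ep300b at 0.52 ± 0.11 and ep300a at -0.60 ± 0.15 (edgeR adjusted p = 0.00156 and 0.005), and ep300b lost its call under ribosomal scaling at -0.046. The remaining calls, named after their values were seen, were map2k1, which encodes the ERK kinase MEK1, at 1.04 ± 0.30 (edgeR adjusted p = 0.0116, lost under ribosomal scaling) and rfwd2, a ubiquitin ligase gene known in mammals for the turnover of PEA3 proteins, at -0.68. The rfwd2 call (edgeR adjusted p = 0.0352) did not hold without CCDC6-RET tumor 6 or without BRAF(V600E) tumor 1, 2, 6 or 7.

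Of 12 genes known as PEA3 targets in mammalian cells, 1 was higher, 7 were lower and 4 did not pass, with a median log2 fold change of -2.14, beside 33.9% higher, 38.2% lower and a median of -0.087 over all tested genes. cxcr4b, a chemokine receptor gene, had 16.6, 22.3, 28.2 and 17.1 CPM in CCDC6-RET tumors 2, 3, 5 and 6, against 196.1, 172.5, 149.3, 206.3 and 190.5 CPM in BRAF(V600E) tumors 1, 2, 3, 6 and 7. It was lower in every CCDC6-RET tumor (-3.12 ± 0.20, edgeR adjusted p = 2.14e-06), as was its paralog cxcr4a (-3.09 ± 0.38, edgeR adjusted p = 6.67e-05). ptgs2a and ptgs2b encode cyclooxygenase-2 and were lower at -6.42 ± 0.55 and -2.28 ± 0.34 on the log2 scale (edgeR adjusted p = 8.44e-06 and 0.000206). The higher gene was mmp14b, a membrane matrix metalloproteinase, at 0.69 ± 0.21 (edgeR adjusted p = 0.013). It lost its call under ribosomal scaling, where none of the list was higher and 8 were lower. Of all 18453 tested genes, that scaling called 3066 higher and 8909 lower. Leukocyte markers, a cell type known for cxcr4 and ptgs2 expression, had a median log2 fold change of -3.68 in the same comparison, and their part in these differences was not tested.

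**Figure D5:**
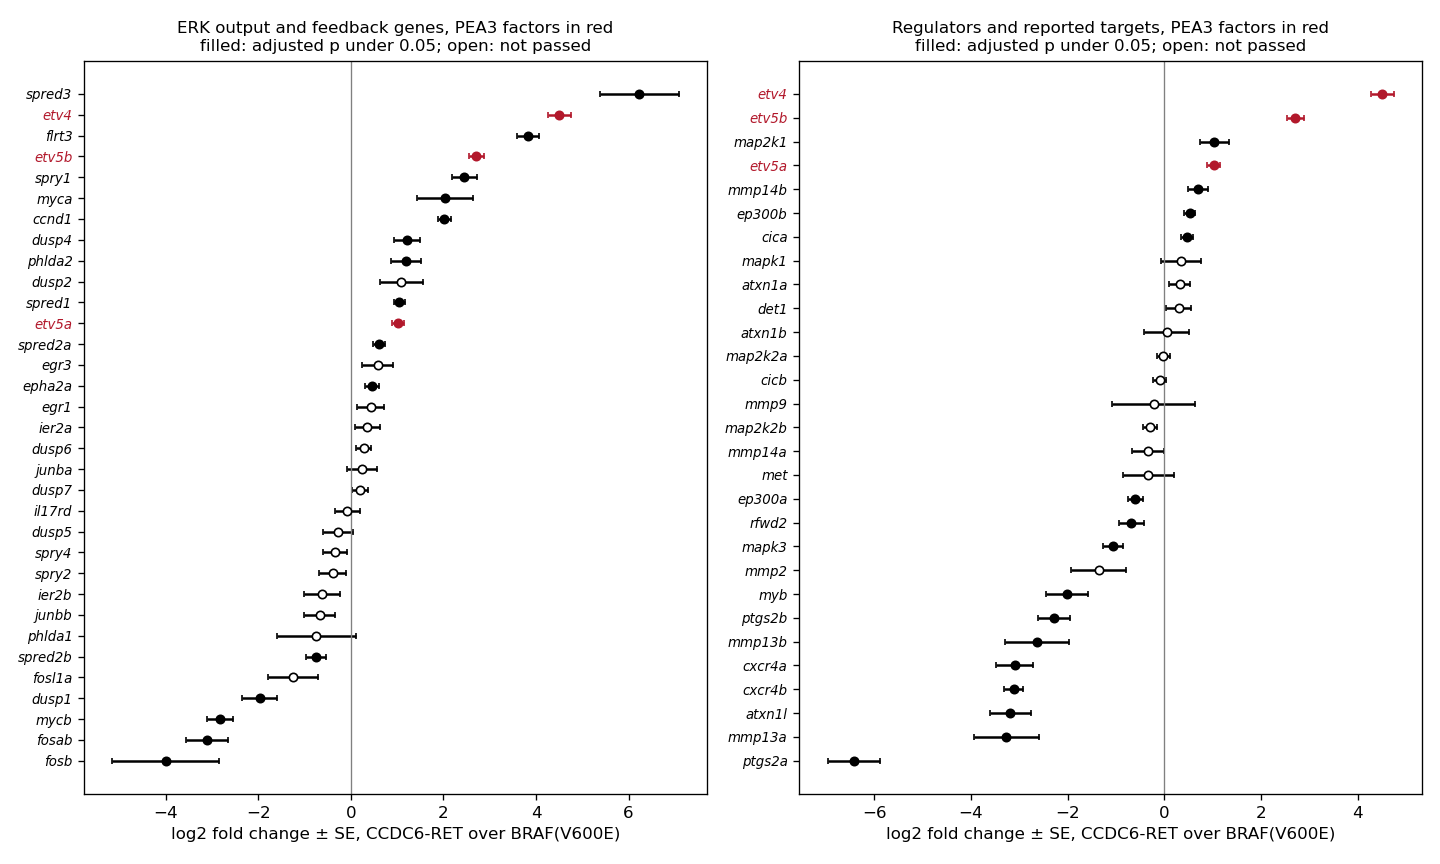
Log2 fold changes with standard errors (horizontal axis, CCDC6-RET over BRAF(V600E)) of ERK output and feedback genes (left) and of PEA3 regulators and reported targets (right), with PEA3 factors in red for comparison, filled points for genes called by edgeR and open points for genes that did not pass. etv4 at 4.51 lies near flrt3 at 3.83 on the left, and ptgs2a at -6.42 is the lowest point on the right.

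Genes with the pattern nearest to each tested member were found from log2(CPM + 0.5) profiles over the 9 libraries, each gene centred on its own mean, as the root mean square (RMS) difference among 14071 genes. Nearest to etv4 were sycp1, a synaptonemal complex gene, at an RMS difference of 0.22, tp53inp2, an autophagy gene, at 0.32 and abcc1, an export pump gene, at 0.35. Among those near etv5b were tuba1b, an alpha tubulin, at 0.15 and ncaph2, a condensin subunit, at 0.15. For etv5a they were acvr1l, a receptor of the bone morphogenetic protein pathway, at 0.093, flot1b, a flotillin, at 0.098 and gnb1b, a G protein subunit, at 0.11. sycp1 averaged 174.1 CPM in CCDC6-RET and 8.24 CPM in BRAF(V600E) tumors, and its log2 fold change was 4.40 ± 0.15, close to that of etv4. The 9 libraries share the group difference, which sets most of each profile, so these likenesses are descriptions.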

How the data were processed

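Reads had been aligned with STAR to GRCz10 by the authors (STAR 2.3 per the submitters' processing notes, a later release per the study's methods). The deposited counts of reads per gene are integers, one column per library. The counting tool and any use of strand are not given in the sources used here. Further columns hold a signal (counts over a size factor, made by the authors), the authors' DESeq2 log2 fold changes, their test score and their p-values, and none was used.

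Counts were analysed with edgeR 4.0.16 (R 4.3.3): filterByExpr with minimum count 10, TMM, robust quasi-likelihood fit, no covariate, and adjusted p under 0.05. etv1 did not pass the filter, so it was tested with an exact permutation test. Within-library ratios used a pseudocount of 0.5. DESeq2 1.42.0, limma-voom (limma 3.58.1), other scalings and filters, and leaving out libraries were alternatives. The steps were tested on simulated data in which few genes changed, as many up as down. That simulation does not test the scaling where most genes differ.

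Members and lists were chosen with earlier results of these data known. Named genes were the members, up to 4 genes per list with the smallest p, cica, cicb, dusp6, and the 3 nearest patterns per member, of which 1 is not reported here. List genes without a match (including tpo and spry3), levels per coding length, promoter motifs and proteins were not analysed here.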

Additional observations from a re-analysis of the deposited data

Results flagged for a closer look

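In 4 of 88 checks within groups, 1 library lay apart from the rest by Dixon's criterion, which chance gives in about 1 of 20 groups. All 4 concerned CCDC6-RET tumor 3, the library with the lowest total count. Its log2 ratio of etv5a to nkx2.4b was the highest of its group at -1.23, against -2.41 to -2.38 in the other CCDC6-RET tumors. Its log2 ratio of etv5b to tshr was also the highest, at 0.73, against -0.84 to -0.62 in the others. ehf was highest there at 7.19 CPM, against 2.27 to 2.94 CPM in the others. elk1 was lowest there at 0.771 CPM, against 2.57 to 2.60 CPM in the others, on 6 counts.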

How the results depend on the processing

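Of 221 alternatives over 15 results, 219 kept the direction and the side of the threshold, or stayed within a set distance. For a count of calls this was 1.5 times the total, whatever the direction of the calls. It was 1 SD for etv1 and for ratios taken from edgeR fold changes. Directions within the counts did change. Under ribosomal scaling, ERK output genes went from 10 higher and 5 lower to 6 and 12, and regulators from 3 and 4 to 0 and 7. Over all 18453 tested genes, calls went from 6255 higher and 7043 lower to 3066 and 8909. The median log2 fold change of all tested genes went from -0.087 to -0.65. The log2 fold change ranged from 3.92 to 4.71 for etv4, from 2.16 to 2.87 for etv5b and from 0.43 to 1.11 for etv5a, and the highest adjusted p of the 3 genes was 0.0281, for etv5a under ribosomal scaling. The 2 exceptions were etv1 and the count of PEA3 regulators. Leaving out 1 library at a time, the pooled log2 ratio of etv1 ran from -0.99, without CCDC6-RET tumor 2, to 0.63, against 0.30 with all libraries. Without the low-count filter edgeR gave etv1 0.14 ± 0.78 (adjusted p = 0.878), and DESeq2 gave 0.016 (adjusted p = 0.988). In the 6 libraries whose replicate numbers occur in both groups (2, 3 and 6), fitted unpaired, 4 regulators were called (1 higher, 3 lower), against 7 with all libraries. The ratio tests between members that passed had adjusted exact permutation p of 0.0428571 at most. Their groups did not overlap with all libraries, so leaving 1 library out could only give the smallest exact p. Those alternatives could not have failed, and they are among the 219.

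Pairing by replicate number was not evident: the deviations of libraries numbered 2, 3 and 6 in both groups correlated at 0.031, 0.0095 and -0.040. The BRAF(V600E) library with the highest correlation was number 2 for CCDC6-RET tumor 2, number 1 for tumor 3 and number 3 for tumor 6. So few pairs cannot exclude a shared preparation. With the replicate number as a block, etv4 stood at 4.68, etv5b at 2.87 and etv5a at 1.01 (edgeR adjusted p = 0.00143, 0.00175 and 0.00943), and 10260 genes were called, against 11522 in the same libraries without the block. With the block, 12 ERK output genes (6 higher, 6 lower) and 5 regulators (1 higher, 4 lower) were called. So were 8 targets (1 higher, 7 lower) and 12 other ETS genes (2 higher, 10 lower). With all libraries these lists held 30, 14, 12 and 23 tested genes. Over the 18270 genes tested with the block, 4442 were called higher and 5818 lower. The planned comparisons of levels per coding length, promoter motifs and proteins were not run, and etv1 has no value under the other scalings, since the filter removed it.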
